A study of Mus musculus with 6 samples.

Results

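The 9 genes described here encode the interferon receptor chains Ifnar1, Ifnar2, Ifngr1 and Ifngr2, the Janus kinases Jak1, Jak2 and Tyk2, and the transcription factors Stat2 and Stat3. They were chosen by name, by matching gene symbols in a table of 25124 genes, and all 9 were among the 11257 genes abundant enough to be tested. The table held polyadenylated RNA levels of untreated RAW264.7 cells, a macrophage-like mouse tumour line. There were 3 libraries labelled E4BP4 knockout and 3 labelled control. E4BP4 is a bZIP transcription factor encoded by Nfil3 and is known mainly as a repressor. The editing method, the number of clones and the source of the replicates (separate cultures or not) are not given in the sources used here, and p-values reflect spread among these 6 libraries only, which may be technical.

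Interferons signal through a short relay. Type I interferons bridge the chains Ifnar1 and Ifnar2, which carry the kinases Tyk2 and Jak1. Interferon gamma bridges Ifngr1 and Ifngr2, which carry Jak1 and Jak2. The activated kinases phosphorylate STAT proteins. Stat2, together with another STAT and Irf9, forms the complex ISGF3, which binds interferon-stimulated response elements (ISREs), whereas STAT homodimers bind gamma-activated sites (GAS). Stat3 is used mostly by the interleukin-6 and interleukin-10 receptor families. Macrophages carry both receptors, and resting macrophages keep a low tonic level of interferon signalling that maintains Stat2 and other interferon-induced genes.

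Levels are given as TPM, which the authors scaled by transcript length and by library. Nfil3, the targeted gene, ran against the label at the transcript level: it measured 105, 104 and 99.8 TPM in the knockout-labelled libraries and 29.5, 29.9 and 31.0 TPM in the controls. A whole-gene value does not check an edit within the coding sequence, so every direction below rests on the labels. Of 10 macrophage markers, all reached a TPM of 1 in at least 1 library and 9 were tested, of which 5 were lower (Csf1r, Cd68, Itgam, Adgre1 and Fcgr1), 3 were higher (Lyz2, Cd14 and Spi1) and 1 did not pass. Their summed level was 4169 to 4313 TPM in the knockout-labelled libraries and 3001 to 3228 TPM in the controls. The lysozyme gene Lyz2 gave 52.0% to 52.5% of that sum in the knockout-labelled libraries and 33.7% to 35.9% in the controls. Of T cell, B cell, NK cell, fibroblast, epithelial, endothelial and erythroid markers, 0 reached a TPM of 1, and of 4 neutrophil markers S100a8 alone did (summed level of all 4 from 5.03 to 6.19 TPM under the knockout label and from 4.43 to 5.85 TPM in the controls). Whole reads recovered from TPM and length came to 18373052, 19867732 and 19546422 in the knockout-labelled libraries and to 18110568, 18104946 and 15615639 in the controls.

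Most of the relay differed little between the groups. In limma, 3 of the 9 passed an adjusted p of 0.05 as lower in the knockout-labelled libraries, 0 passed as higher and 6 did not pass. Across all genes tested, 50.1% passed, 23.4% as lower and 26.7% as higher. At an unadjusted p under 0.05 the counts for the 9 were also 3 lower and 0 higher, and the share of all genes at that threshold was not taken. With limma-voom on recovered reads, 4 of the 9 were called lower and 0 higher. The same fit called 3095 lower and 3064 higher among all genes tested. None of the 9 reached a log2 fold change of 1 in size with an adjusted p under 0.05, as 2.25% of all tested genes did. The 3 genes were Stat2, Ifnar2 and Ifngr1. By role, 2 of 4 receptor chains, 0 of 3 kinases and 1 of 2 STATs were lower. The same 3 genes were those whose groups did not overlap in TPM, against 58.5% of all tested genes without overlap and 27.2% with every knockout-labelled library below every control. In the authors' deposited table the same 3 of the 9 had an adjusted p under 0.05, all lower, where 28.4% of its genes passed and 14.2% passed as lower. Ifnar2 and Ifngr1 passed narrowly in the authors' comparison, at adjusted p = 0.0492 and 0.0493. The median log2 fold change, knockout-labelled libraries minus controls on log2(TPM + 1), was −0.02 over the 9 genes and 0.02 over all genes tested. In bulk RNA, less transcript per cell and fewer cells that make it cannot be told apart.

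**Figure D1:**
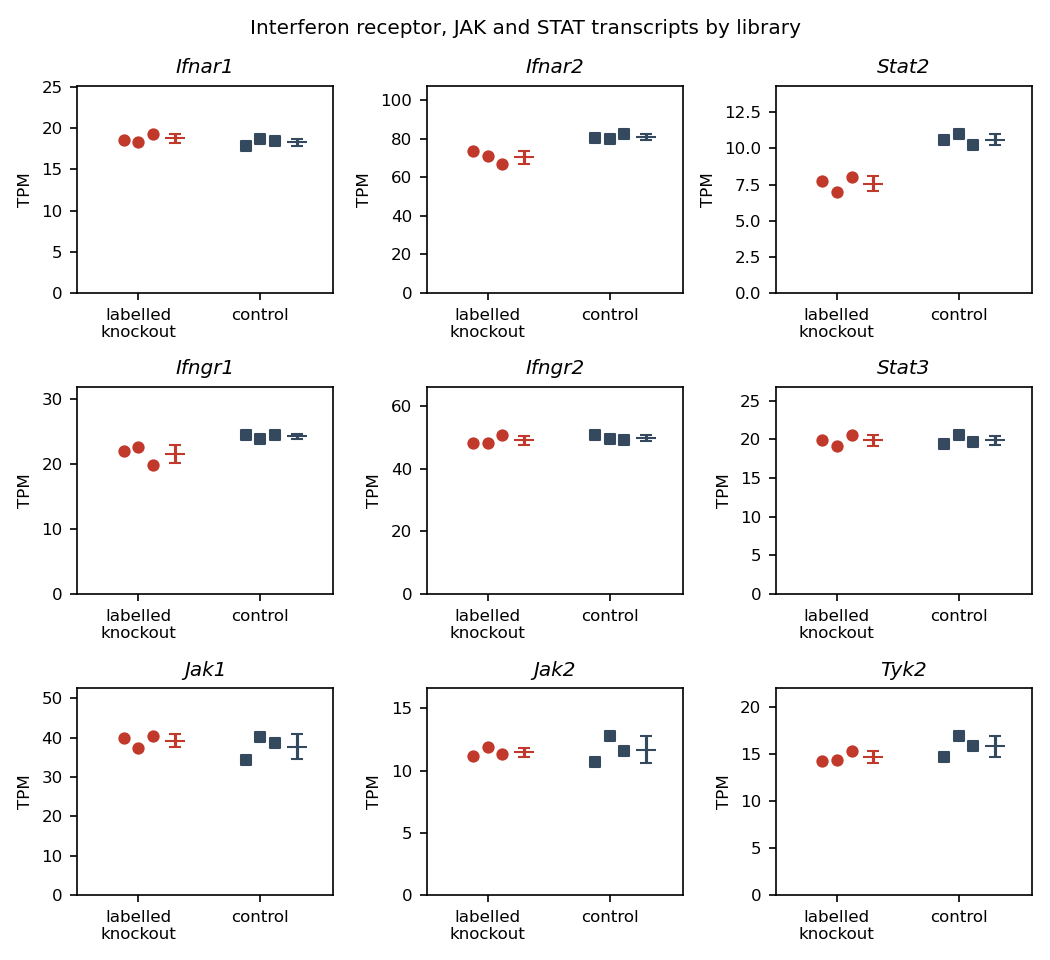
TPM of each gene (vertical axes from 0) in the 3 knockout-labelled libraries (red circles) and the 3 controls (dark squares), with the mean and SD beside the points. Stat2, Ifnar2 and Ifngr1 have groups that do not overlap, and the other 6 genes have overlapping groups.

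Stat2 had the largest log2 fold change of the 9. It measured 7.75, 6.96 and 8.02 TPM in the knockout-labelled libraries, against 10.6, 11.0 and 10.2 TPM in the controls. Every knockout-labelled library lay below every control. The group averages were 7.58 ± 0.550 TPM under the knockout label and 10.6 ± 0.396 TPM in the controls (SD, n = 3 each), a level 0.714 times that of the controls under the knockout label. On the log2 scale the change was −0.44 (SE 0.0641, 95% interval −0.58 to −0.29, limma adjusted p = 0.000385). Recovered reads for Stat2 were 532, 521 and 581 in the knockout-labelled libraries and 741, 743 and 603 in the controls. The authors' deposited table gave a log2 fold change of −0.50 with an adjusted p of 6.48e-09. Of all genes called lower, 69.6% fell by less than Stat2 did. Stat2 lies on the plus strand of chromosome 10 from 128270498 to 128292853 (mm10), and GENCODE M21 gives its transcript 24 exons and a protein of 922 residues. Its span overlaps Apof on the same strand by 753 bases, and Apof averaged 0.681 TPM over the 6 libraries.

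Stat3 is the contrast among the STATs. It measured 19.9, 19.2 and 20.6 TPM in the knockout-labelled libraries, against 19.4, 20.5 and 19.7 TPM in the controls, so the groups overlapped throughout. It averaged 19.9 ± 0.699 TPM under the knockout label and 19.9 ± 0.565 TPM in the controls (SD, n = 3 each). Its log2 fold change was 0.00 (limma adjusted p = 0.984), and its 95% interval, as a fold of TPM + 1, ran from 0.930 to 1.08. The log2 ratio of Stat2 over Stat3 within a library, taken on TPM + 1 as are all ratios of this kind here, was −1.26, −1.34 and −1.26 in the knockout-labelled libraries and −0.82, −0.84 and −0.88 in the controls. The groups did not overlap. The difference was −0.44 (−0.48 with 0.1 added in place of 1) against a pooled SD of 0.041, with an exact permutation p of 0.1 (two-sided), the smallest that 3 libraries against 3 allow.

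The promoters of the 9 genes, 250 bases before to 50 after the start site, were searched on both strands for an ISRE core (a pair of GAAA blocks with 2 bases between), a GAS (TTCNNNGAA) and the D-box forms TTACGTAA and TTATGTAA to which E4BP4 binds. The sequences are from RefSeq (GRCm38.p6), and all 9 genes matched. Stat2 held the only ISRE core, Ifnar1 and Ifnar2 held 1 GAS match each, and none of the 9 held either D-box form. No promoter of the 9 held more than 1 match, so no matches overlapped. Of 32851 promoters of the same length, 3.44% held an ISRE core, 8.30% a GAS, 0.12% TTACGTAA and 0.94% TTATGTAA. The 3 promoters with a match are shown because their matches are to the kinds of element that the relay acts through. Capitals mark the match.
Stat2, chr10:128270248-128270547, plus strand: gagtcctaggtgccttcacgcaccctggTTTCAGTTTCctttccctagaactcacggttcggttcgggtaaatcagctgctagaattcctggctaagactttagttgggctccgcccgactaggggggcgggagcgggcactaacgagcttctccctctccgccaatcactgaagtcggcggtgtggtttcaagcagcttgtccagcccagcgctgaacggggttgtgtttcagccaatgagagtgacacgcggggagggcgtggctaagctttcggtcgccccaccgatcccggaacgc
Ifnar2, chr16:91372533-91372832, plus strand: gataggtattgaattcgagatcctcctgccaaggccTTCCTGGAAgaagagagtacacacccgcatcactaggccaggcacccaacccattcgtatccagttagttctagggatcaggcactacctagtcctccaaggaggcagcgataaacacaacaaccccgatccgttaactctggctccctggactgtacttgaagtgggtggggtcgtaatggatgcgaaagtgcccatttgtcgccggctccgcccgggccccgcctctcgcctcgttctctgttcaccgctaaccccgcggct
Ifnar1, chr16:91484965-91485264, plus strand: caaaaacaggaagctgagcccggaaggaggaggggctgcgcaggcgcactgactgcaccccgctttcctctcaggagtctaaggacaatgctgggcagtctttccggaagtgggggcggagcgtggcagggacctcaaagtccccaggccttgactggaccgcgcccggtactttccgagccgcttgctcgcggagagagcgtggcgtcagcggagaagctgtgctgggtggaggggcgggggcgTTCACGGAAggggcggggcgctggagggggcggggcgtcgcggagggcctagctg

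The ISRE core of Stat2, TTTCAGTTTC as read on the strand shown, begins at position −222 from the start site. The GAS match of Ifnar2 begins at −214 and that of Ifnar1 at −5. Ifnar2 was lower in the knockout-labelled libraries and Ifnar1 did not pass, so the 2 promoters with a GAS match belong to genes with different calls. Among tested genes with a listed promoter, 117 of 340 with an ISRE core (34.4%) were lower, against 1973 of 8437 without one (23.4%). For GAS the shares were 24.2% with the motif and 23.8% without. A match is a description of these letters and shows no binding.

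Of the type I receptor chains, Ifnar2 passed and Ifnar1 did not. Ifnar2, the chain that binds interferon with the higher affinity and carries Jak1, measured 73.5, 71.0 and 66.8 TPM in the knockout-labelled libraries, against 80.2, 80.1 and 82.6 TPM in the controls. All knockout-labelled libraries were below all controls. Ifnar2 averaged 70.4 ± 3.37 TPM under the knockout label and 81.0 ± 1.39 TPM in the controls (SD, n = 3 each), a level 0.870 times that of the controls under the knockout label. The fitted log2 fold change was −0.20 (SE 0.0428, 95% interval −0.30 to −0.10, limma adjusted p = 0.00363).

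Ifnar1, the chain that carries Tyk2, measured 18.6, 18.3 and 19.3 TPM in the knockout-labelled libraries, against 17.8, 18.7 and 18.4 TPM in the controls. The groups overlapped, averaging 18.7 ± 0.517 TPM under the knockout label and 18.3 ± 0.416 TPM in the controls (SD, n = 3 each). For Ifnar1 the log2 fold change was 0.03 (limma adjusted p = 0.580), with a 95% interval from 0.953 to 1.10 as a fold of TPM + 1. The log2 ratio of Ifnar1 over Ifnar2 was −1.93, −1.90 and −1.74 in the knockout-labelled libraries and −2.11, −2.05 and −2.11 in the controls. The ratio was higher by 0.23 in the knockout-labelled libraries, with no overlap and an exact permutation p of 0.1, again the smallest possible.

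The level of Ifnar2 depends on which transcript stands for the gene. The TPM values count NM_001110498, listed at 1160 bases with a protein of 248 residues in GENCODE M21. The second table the authors deposited counts NM_010509, listed at 3028 bases with a protein of 513 residues. The 2 share 972 exon bases, which are 88.4% of the shorter transcript and 31.9% of the longer. Mouse Ifnar2 is known to be made in a transmembrane and a soluble form, and reads in shared exons do not tell these apart. In TPM, Ifnar2 stood at 3.76 times the level of Ifnar1 in the knockout-labelled libraries and at 4.42 times in the controls. With the log2 values of the authors' deposited table taken back to a linear scale per kilobase, the same ratios were 1.75 in the knockout-labelled libraries and 1.93 in the controls. These ratios also depend on the length listed for Ifnar1. It was 7000 bases with the TPM values and 6992 in the second table, where GENCODE M21 gives its transcript 3909 exon bases. Ifnar2 was lower under either transcript: limma on the log2 values of the authors' deposited table gave a log2 fold change of −0.12 (adjusted p = 0.0188), and the authors' own comparison in that table gave −0.14 (adjusted p = 0.0492).

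Of the interferon gamma receptor chains, Ifngr1 passed and Ifngr2 did not. Ifngr1, the ligand-binding chain that carries Jak1, measured 22.0, 22.6 and 19.9 TPM in the knockout-labelled libraries, against 24.5, 23.8 and 24.4 TPM in the controls. The groups did not overlap. Ifngr1 averaged 21.5 ± 1.44 TPM under the knockout label and 24.2 ± 0.378 TPM in the controls (SD, n = 3 each), and the log2 fold change was −0.17 (SE 0.0536, 95% interval −0.29 to −0.05, limma adjusted p = 0.0272). This call was the weakest of the 3. It was lost when replicate 3 of the knockout-labelled libraries was left out (adjusted p = 0.0936), when control replicate 1 was (adjusted p = 0.0550) and when control replicate 3 was (adjusted p = 0.0723).

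Ifngr2, the chain that carries Jak2, measured 48.1, 48.2 and 50.8 TPM in the knockout-labelled libraries, against 50.7, 49.5 and 49.0 TPM in the controls. The groups overlapped, and Ifngr2 averaged 49.0 ± 1.52 TPM under the knockout label and 49.7 ± 0.840 TPM in the controls (SD, n = 3 each). Its log2 fold change was −0.02 (limma adjusted p = 0.677), with a 95% interval from 0.927 to 1.05 as a fold of TPM + 1. The log2 ratio of Ifngr1 over Ifngr2 averaged −1.15 ± 0.136 in the knockout-labelled libraries and −1.01 ± 0.026 in the controls (SD, n = 3 each), without overlap (exact permutation p = 0.1). Their difference was −0.15, and it was −0.07 without replicate 3 of the knockout-labelled libraries.

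None of the 3 kinases passed in limma, and 0 had an unadjusted p under 0.05. Jak1, which serves both receptors, measured 40.0, 37.3 and 40.5 TPM in the knockout-labelled libraries, against 34.3, 40.3 and 38.7 TPM in the controls. Control replicate 1 was the lowest of the 6 libraries, and the groups overlapped. For Jak1 the log2 fold change was 0.06 (limma adjusted p = 0.464), with a 95% interval from 0.945 to 1.15 as a fold of TPM + 1.

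Jak2, the kinase of the interferon gamma receptor and of many growth factor receptors, measured 11.2, 11.9 and 11.3 TPM in the knockout-labelled libraries, against 10.7, 12.8 and 11.6 TPM in the controls. The knockout-labelled libraries lay within the range of the controls. Its log2 fold change was −0.02 (limma adjusted p = 0.791), with a 95% interval from 0.887 to 1.09 as a fold of TPM + 1.

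Tyk2, the kinase of the type I receptor, measured 14.3, 14.4 and 15.4 TPM in the knockout-labelled libraries, against 14.7, 17.0 and 15.9 TPM in the controls. Control replicate 1 lay within the range of the knockout-labelled libraries, and the other controls lay above it. For Tyk2 the log2 fold change was −0.10 (limma adjusted p = 0.181), with a 95% interval from 0.847 to 1.02 as a fold of TPM + 1. Tyk2 passed as lower in limma-voom on recovered reads (log2 fold change −0.13, adjusted p = 0.0408) and in limma on the deposited log2 values (log2 fold change −0.10, adjusted p = 0.0467). The log2 ratio of Jak1 over Tyk2 was 1.43, 1.32 and 1.34 in the knockout-labelled libraries and 1.17, 1.20 and 1.23 in the controls, without overlap (exact permutation p = 0.1). That of Jak1 over Jak2 overlapped (difference 0.08, exact permutation p = 0.4). Over the 5 ratios the exact permutation p adjusted by Benjamini-Hochberg was 0.125 for the 4 at p = 0.1 and 0.4 for the other.

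**Figure D2:**
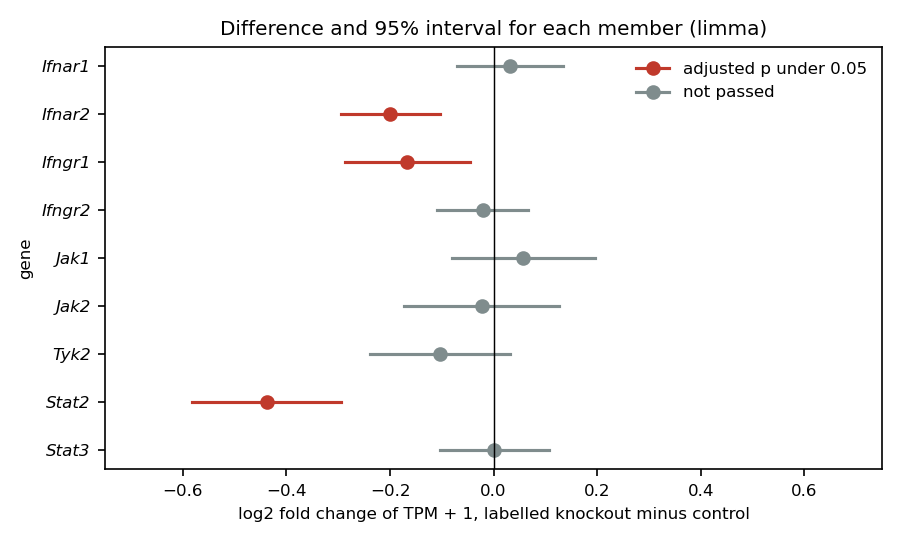
The log2 fold change of TPM + 1, knockout-labelled libraries minus controls (horizontal axis), with its 95% interval from limma for each gene. The intervals of Stat2, Ifnar2 and Ifngr1 (red) lie below 0, and those of the other 6 genes (grey) cross 0.

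Ranked by TPM in the controls, the order was Ifnar2, Ifngr2, Jak1, Ifngr1, Stat3, Ifnar1, Tyk2, Jak2 and Stat2. The order of mean TPM was the same in the knockout-labelled libraries. Among the controls, only the neighbours Jak2 and Stat2 overlapped. Over all 6 libraries, Ifngr1 also overlapped with Stat3, and Stat3 with Ifnar1. Stat2 was the least abundant of the 9, at the 38.1st percentile of tested genes in the controls. Ifnar2, the most abundant in TPM, stood at the 88.1st. Its place depends on the transcript. Per kilobase in the authors' deposited table, Ifngr2 was first, at 771.4 in the controls and 757.3 in the knockout-labelled libraries. Ifnar2 stood there at 544.4 in the controls and 501.3 in the knockout-labelled libraries. Jak1 stood there at 543.1 in the controls and 557.1 in the knockout-labelled libraries. Within the kinases, Jak1 stood at 3.43 times the level of Jak2 in the knockout-labelled libraries and at 3.23 times in the controls. These levels are per length of the 1 transcript listed for each gene. For some genes that length differs from the exon bases in GENCODE M21. Ifnar1 was listed at 7000 bases against 3909, and Ifngr2 at 2096 against 3708. The order therefore depends on the listed lengths too. In mm10, Ifngr1 spans chr10:19591949-19610227 on the plus strand, Jak2 spans chr19:29251803-29313092 on the plus strand, and Tyk2 spans chr9:21104068-21131275 on the minus strand. Jak1 spans chr4:101152368-101265223 and Stat3 chr11:100886806-100939540, both on the minus strand.

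The genes that encode the interferons were at or near 0. Of 21 interferon genes, 15 were listed at 0 in all 6 libraries, and the highest value was 0.115 TPM for Ifnl3 in a control. All 21 together came to 2 recovered reads in the knockout-labelled libraries and 5 in the controls. No interferon gene reached the level for a test, so a difference in ligand transcript was not detectable at this depth.

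Of the other JAK and STAT genes, 1 of 5 tested was lower and 0 were higher, with a median log2 fold change of −0.14. At an unadjusted p under 0.05, 3 were lower and 0 higher. The gene was Jak3, the kinase of receptors that share the common gamma chain, at 9.23, 7.65 and 8.82 TPM in the knockout-labelled libraries and 12.4, 12.9 and 12.8 TPM in the controls (log2 fold change −0.52, limma adjusted p = 0.000199). Stat6, the interleukin-4 STAT and the most abundant of the tested genes in this list, averaged 64.1 ± 2.76 TPM in the knockout-labelled libraries and 65.5 ± 3.19 TPM in the controls (SD, n = 3 each). Stat5a and Stat5b, used by growth factor receptors, stood at log2 fold changes of 0.03 and −0.14 (not passed, limma adjusted p = 0.846 and 0.0804). The count for this list was 3 with upper-quartile scaling, median-of-ratios scaling, limma-voom on recovered reads, limma on the deposited log2 values, or without control replicate 1. It was 2 with a TPM minimum of 5 or without replicate 1 of the knockout-labelled libraries.

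Partners of the interferon STATs were split, with 4 of 8 lower and 1 higher. Irf9, the DNA-binding partner of Stat2 in ISGF3, averaged 14.9 ± 1.45 TPM in the knockout-labelled libraries and 21.0 ± 1.22 TPM in the controls (SD, n = 3 each; a log2 difference of −0.47, limma adjusted p = 0.000498). Its change was close in size to that of Stat2. Irf1, itself a direct target of GAS-bound STATs, averaged 14.7 ± 0.205 TPM in the knockout-labelled libraries and 20.5 ± 0.690 TPM in the controls (log2 fold change −0.46). Ran, the GTPase of nuclear import, fell by 0.18 on the log2 scale.

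Of 19 tested genes reported as ISGF3 targets, Stat2 included, 18 were lower and 0 higher (19 and 0 at an unadjusted p under 0.05 and in limma-voom), with a median log2 fold change of −0.76 against 0.02 for all genes tested. Ifit1 reached the level for a test through the controls alone. Without it, 17 of 18 were lower, with a median of −0.73. Ranked from the largest fall on log2(TPM + 1), Stat2 was number 17 of the 19, behind Irf9 at 15. As ratios of mean TPM, knockout-labelled libraries over controls, these 2 stood at 0.714 and 0.709. At the other end, Ifi44, Irf7 and Oas3 fell by 1.88, 1.43 and 1.26 on the log2 scale. The order depends on the added 1, which makes changes of low genes smaller. By the ratio of mean TPM, the low gene Ifit1 (0.247) fell further than Irf7 (0.321) and Oas3 (0.390). Of 12 tested genes reported as GAS targets of interferon gamma, 9 were lower and 0 higher (10 and 0 at an unadjusted p under 0.05 and in limma-voom), with a median of −0.50. Fcgr1, the high-affinity IgG receptor, averaged 11.8 ± 0.646 TPM in the knockout-labelled libraries and 40.2 ± 2.15 TPM in the controls (SD, n = 3 each). The immunoproteasome genes Psmb8 and Psmb9 fell by 0.54 and 0.64 on the log2 scale. Fcgr1 is also one of the macrophage markers above; the part of the marker levels in these results was not tested. These lists were written with earlier results of these data known, so their direction is not independent evidence.

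Genes reported as Stat3 targets moved both ways. Of 21 tested, 8 were lower and 8 were higher, with a median of 0.01. Il10, 1 of the 8 lower, reached the level for a test through the controls alone. Nfil3, the targeted gene itself, is on that list and is 1 of the 8 higher. It had the largest log2 fold change of the list, 1.74. Cebpd, a bZIP factor gene of the acute phase response, averaged 32.0 ± 2.35 TPM in the knockout-labelled libraries and 13.2 ± 0.536 TPM in the controls (SD, n = 3 each; a log2 difference of 1.22, limma adjusted p = 3.72e-07). Pim1, a survival kinase gene, rose by 0.62 on the log2 scale. Socs3, the feedback inhibitor of interleukin-6 receptor signalling, went the other way, at 1.41, 1.22 and 1.13 TPM in the knockout-labelled libraries and 2.76, 3.23 and 3.08 TPM in the controls.

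Among negative regulators of the relay, 6 of 18 tested were lower and 2 higher, with a median of 0.06. The counts were 6 lower and 4 higher at an unadjusted p under 0.05, and 6 and 3 in limma-voom. Usp18, which binds Ifnar2 and displaces Jak1, averaged 4.20 ± 0.617 TPM in the knockout-labelled libraries and 10.5 ± 0.772 TPM in the controls (SD, n = 3 each; a log2 difference of −1.15, limma adjusted p = 7.86e-06). Ptpn6, the phosphatase SHP-1 of myeloid cells, averaged 184.5 ± 4.74 TPM in the knockout-labelled libraries and 262.8 ± 11.7 TPM in the controls (log2 fold change −0.51). Socs3 was the third by adjusted p, with a log2 fold change of −0.84.

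Of 16 tested receptor chains of other cytokines that use the same kinases, 10 were lower and 2 higher, with a median of −0.22. Il11ra1, 1 of the 2 higher, reached the level for a test through the knockout-labelled libraries alone. Without it the median was −0.24. Csf2rb2 and Csf2rb, the beta chains for interleukin-3 and related cytokines, fell by 1.66 and 0.93 on the log2 scale. They are near-identical paralogs, so the split of reads between them is uncertain. Il7r, which pairs with the common gamma chain, averaged 2.62 ± 0.132 TPM in the knockout-labelled libraries and 5.53 ± 0.127 TPM in the controls (SD, n = 3 each). Of class II cytokine receptors beside the interferon chains, Il10ra fell by 0.34 on the log2 scale (limma adjusted p = 0.000455). Its partner Il10rb, a shared chain that also serves the lambda interferons, stood at −0.10 on that scale and was not called (adjusted p = 0.113). Its call passed in limma-voom on recovered reads (adjusted p = 0.0432), and also when control replicate 3 was left out (adjusted p = 0.0421).

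**Figure D3:**
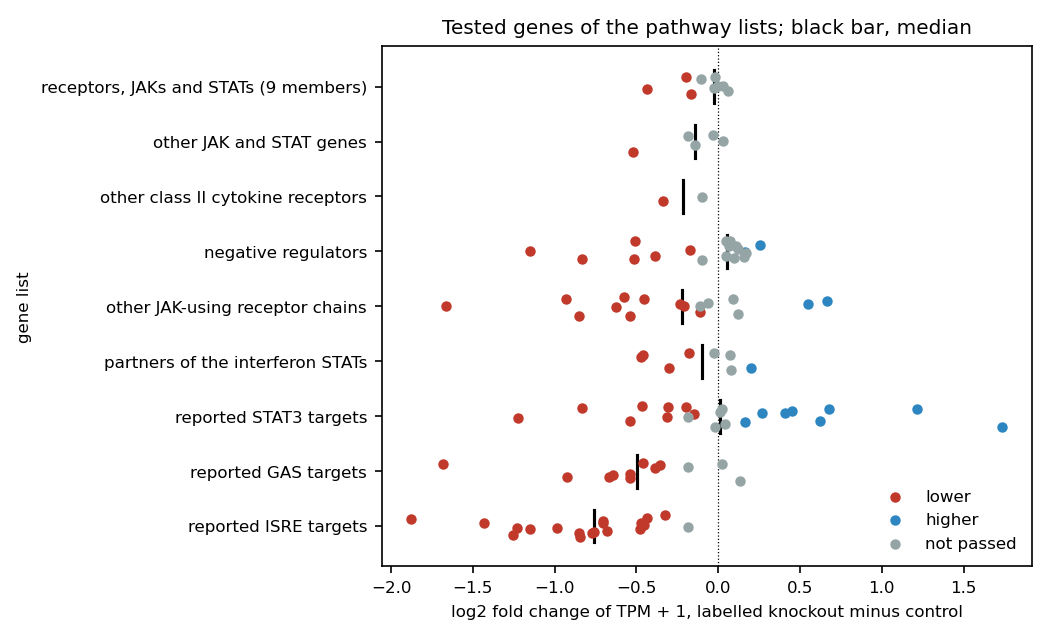
The log2 fold change of TPM + 1, knockout-labelled libraries minus controls (horizontal axis), of every tested gene in each pathway list, with the 9 genes in the top row; red, lower; blue, higher; grey, not passed; black bar, median. The reported ISRE targets have a median of −0.76 and the 9 relay genes one of −0.02.

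Ifnar2, Il10rb, Ifnar1 and Ifngr2 lie in that order on the plus strand within 191.2 kb of chromosome 16. Ifnar2 spans chr16:91372783-91394043, Ifnar1 chr16:91485215-91510522 and Ifngr2 chr16:91547059-91564007 (mm10). Of 17 tested genes within 500 kb of that span, 5 passed as lower (29.4%) and 3 as higher (17.6%), against 23.4% lower and 26.7% higher over all genes tested, with a median log2 fold change of −0.10. Of the 4 receptor genes, Ifnar2 was the only one called. Tmem50b, a membrane protein gene just past Ifngr2, averaged 11.4 ± 0.985 TPM in the knockout-labelled libraries and 20.4 ± 0.369 TPM in the controls (SD, n = 3 each; a log2 difference of −0.78). Cryzl1, a quinone oxidoreductase-like gene farther on, averaged 38.3 ± 1.32 TPM in the knockout-labelled libraries and 27.5 ± 1.04 TPM in the controls (log2 fold change 0.46).

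**Figure D4:**
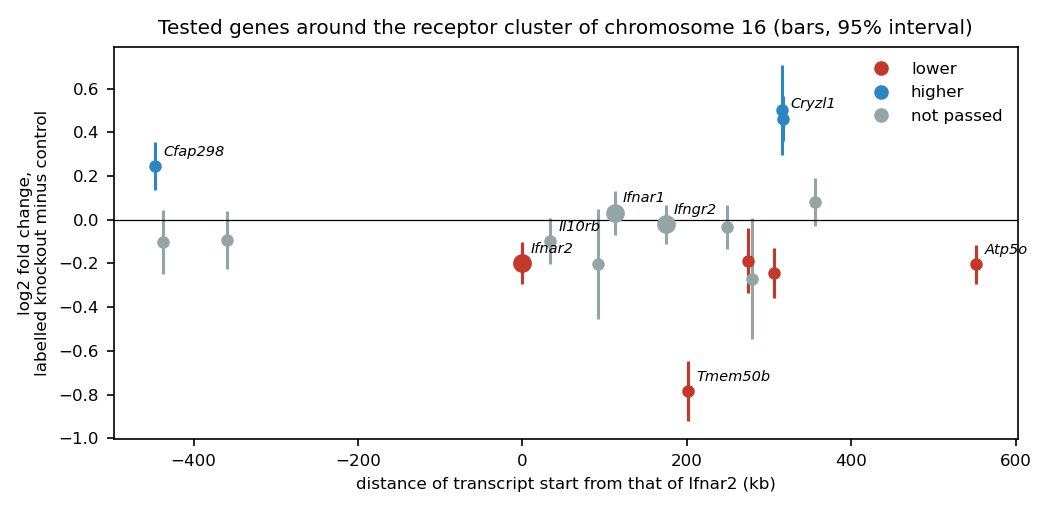
The log2 fold change of TPM + 1, knockout-labelled libraries minus controls (vertical axis, bars are 95% intervals), of the 17 tested genes around the receptor cluster, by the distance of each transcript start from that of Ifnar2 in kb. The larger points are Ifnar2, Ifnar1 and Ifngr2. Calls of both directions occur in the window.

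For the receptor, the kinase and the STAT with the largest absolute log2 fold change, the 3 tested genes with the most similar pattern over the 6 libraries were found by the root mean square difference of centred log2(TPM + 1). For Stat2 they were Nhsl2, Rps6ka1 and L1cam, at 0.0202, 0.0271 and 0.0273. Nhsl2 was low, averaging 1.008 TPM in the knockout-labelled libraries and 1.705 TPM in the controls, where the added 1 makes a change smaller. For Ifnar2 they were Timm17a, Ing4 and Tomm22, at 0.0187, 0.0187 and 0.0204. For Tyk2 they were Mgat4a, Synj1 and Plxna2, at 0.0080, 0.0149 and 0.0167. Synj1 also lies in the window around the receptor cluster. With 6 libraries in 2 groups, these distances describe the libraries alone.

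**Figure D5:**
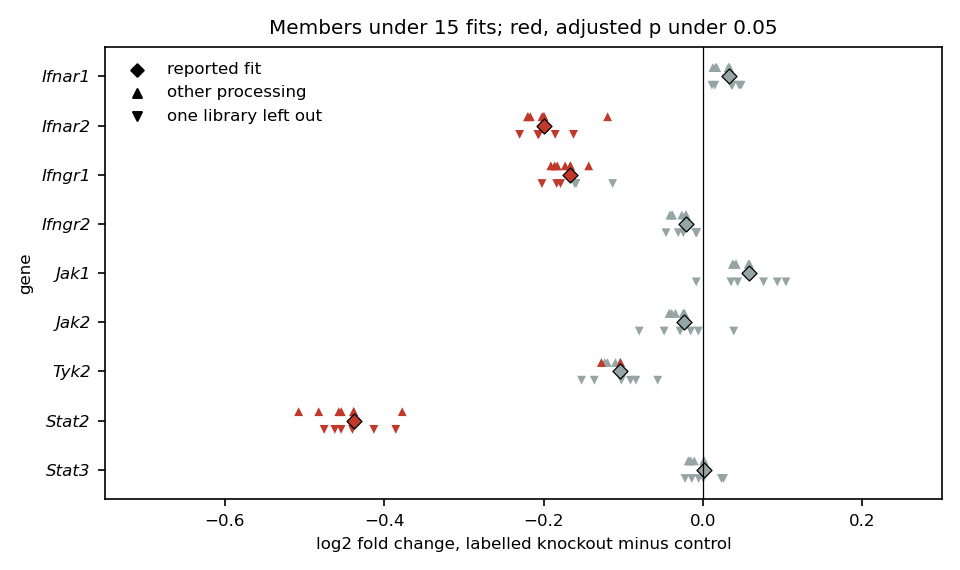
The log2 fold change, knockout-labelled libraries minus controls (horizontal axis), of each gene under 15 fits; diamonds, the reported fit; upward triangles, other processing; downward triangles, 1 library left out; red, adjusted p under 0.05. Stat2 and Ifnar2 are red under every fit drawn, whereas Ifngr1 and Tyk2 change colour between fits.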

How the data were processed

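RNA of untreated RAW264.7 cells was extracted, poly(A)-selected and made into libraries with an NEBNext Ultra kit, per the labels' protocols. The submitters' processing notes name STAR 2.7.5a, HOMER 4.11.1, DESeq2, bcl2fastq and the mm10 build, without role or order. The authors deposited TPM values with 1 RefSeq transcript per symbol and its length, which is not an independent measure of isoforms, and a second table with log2 values per library (transform not given in the sources used here), log2 fold changes, p-values and adjusted p-values. That comparison is headed WT vs. TG, and TG was read as knockout, since all 5398 genes under an adjusted p of 0.05 there had the sign of knockout minus control.

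Genes with a TPM of at least 1 in at least 3 of 6 libraries were tested on log2(TPM + 1) (changes of low genes come out too small on this scale) with limma 3.58.1 in R 4.3.3 (mean-variance trend, no covariates, two-sided, Benjamini-Hochberg over all tested genes, adjusted p under 0.05). Ratios within libraries were tested by exact permutation. The fit was also run on simulated data with independent noise and far fewer changed genes than were called here. That run does not check the calls in these data. TPM times length fell on whole multiples of 1 step per library for 100% of checked values (tolerance 0.1, chance 20%). The recovered reads served for depth and limma-voom, and cover counting error only. Chi-square per degree of freedom between replicates was 1.78 to 5.73, more than counting error alone gives. All 6 libraries were counted, though these values do not show whether they are separate cultures. No pair of same-numbered libraries deviated together (correlations −0.06 to 0.00).

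Members and lists were chosen with earlier results of these data known. Named genes were the 9 members, the 3 genes per list with the smallest adjusted p (all tested genes for lists of 5 or fewer), the 3 genes most alike, and tested genes near the chromosome 16 cluster. A few genes are counted in lists without being named, and their own results are not given. The kit does not mark strand, and reads shared by paralogs or overlapping genes could not be told apart. The alternatives were another pseudocount (0.1), no filter, a TPM minimum of 5, upper-quartile and median-of-ratios scaling, limma-voom, the deposited log2 values, a replicate block, and leaving out each library.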

Additional observations from a re-analysis of the deposited data

How the results depend on the processing

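Stat2 and Ifnar2 were lower at an adjusted p under 0.05 in all 14 alternatives to the reported fit. Stat2 ranged from −0.51 to −0.38 on the log2 scale and Ifnar2 from −0.23 to −0.12. The smallest fall of each came from limma on the deposited log2 values. The authors' own comparison in the same table gave larger falls, −0.50 for Stat2 and −0.14 for Ifnar2. Ifngr1 kept its direction in all 14 but did not pass in 4: without a filter on low values (log2 fold change −0.17, adjusted p = 0.0553) and in the 3 fits named above that left out a library, where leaving out 1 library in turn gave −0.20 to −0.11. Tyk2 passed in 2 (−0.13 with limma-voom on recovered reads, −0.10 on the deposited log2 values). Of genes that did not pass, Stat3 changed sign with upper-quartile scaling (−0.018), median-of-ratios scaling (−0.015), limma-voom (−0.016) and the deposited log2 values (−0.011). Leaving out 1 library gave −0.022 to 0.026 for Stat3, −0.0084 to 0.10 for Jak1, −0.080 to 0.039 for Jak2, −0.065 to 0.0044 for Stat6 and −0.066 to 0.14 for Stat5a. The cause was not tested. The number of the 9 genes called was 2 to 4 over the alternatives, and 0 were called higher in any. For the other JAK and STAT genes 3 were called with upper-quartile scaling, median-of-ratios scaling, limma-voom and the deposited log2 values, 2 with a TPM minimum of 5, and 1 to 3 without 1 library. For the other class II receptors 2 were called without a filter and with limma-voom, and 1 to 2 without 1 library. The Stat2 over Stat3 difference was −0.48 with a pseudocount of 0.1. With the replicate number as a block, 5297 genes were called in all, and the same 3 of the 9 passed (Stat2 at −0.44, adjusted p = 0.0011). The block changed no call of the 9 genes or of the genes named from the pathway lists. The shared numbers did not pair the libraries. With 3 libraries a group, a gene that did not pass is not shown to be equal between the groups.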

Other observations

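Of 52 pathway-list genes below the level for a test, 11 had groups that did not overlap, 10 of them lower and 1 higher in the knockout-labelled libraries. The share without overlap among all genes below that level was not taken, so these counts say nothing particular about the lists. The 4 given here were chosen after their values were seen. F3, the tissue factor gene of the class II cytokine receptor family, was the higher one, listed at 0.521, 0.668 and 0.723 TPM in the knockout-labelled libraries and at 0.272, 0.106 and 0.162 TPM in the controls. Socs1, the main inhibitor of interferon gamma signalling, was listed at 0.480, 0.489 and 0.354 TPM in the knockout-labelled libraries and at 0.889, 1.25 and 1.118 TPM in the controls. Lifr, the leukaemia inhibitory factor receptor that signals through Stat3, was listed at 0.138, 0.105 and 0.109 TPM in the knockout-labelled libraries and at 0.495, 0.724 and 0.561 TPM in the controls. Cish, a cytokine-induced inhibitor of Stat5 signalling, was listed at 0.194, 0.059 and 0.224 TPM in the knockout-labelled libraries and at 0.464, 0.263 and 0.452 TPM in the controls. They rest on few reads (for Socs1, 9 and 10 in the first 2 knockout-labelled libraries), and no test was run on them.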
